A study of Mus musculus with 4 samples.

Results

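The genes described here are 10 transcriptional targets of the factor ATF4. They are Phgdh, Psat1 and Psph of serine synthesis, Shmt2 and Mthfd2 of mitochondrial one-carbon metabolism, Asns of asparagine synthesis, Aldh18a1 and Pycr1 of proline synthesis, and the ATF4-induced genes Trib3 and Chac1. They were chosen with earlier results of these data known, and taken by symbol as 10 of the 32230 rows of the deposited table. All 10 passed the filter on low values. The RNA came from poly(T) capture of 4F2A cells, mouse embryonic fibroblasts that carry a doxycycline-inducible cassette of Oct4, Sox2, Klf4 and Myc and were taken from male homozygous embryos of 13.5 days post coitum. Both groups grew in medium with LIF and doxycycline at 2 µg/mL, were given DMSO (the vehicle) or CX-5461 for 1 h on day 0, and were harvested on day 2, after 48 h of doxycycline. CX-5461 is an inhibitor of RNA polymerase I, which transcribes ribosomal RNA genes. Each group had 2 libraries, numbered 2 and 3. Nothing in the labels, which speak of parallel replicates, says that the libraries of a group came from separate cultures. The p-values therefore measure library-to-library spread alone, which may be technical. Nor do the labels say how many embryos were used or whether they were pooled.

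ATF4 is the transcription factor of the integrated stress response. When kinases such as GCN2 (gene Eif2ak4, activated by amino acid shortage) or PERK (gene Eif2ak3, activated by stress in the endoplasmic reticulum) phosphorylate eIF2alpha, general translation falls while the Atf4 message is translated more, so the activity of ATF4 is set largely at the protein level and is not read directly from its message. With C/EBP partners, ATF4 binds C/EBP-ATF response elements and switches on genes for the synthesis and import of amino acids and for the charging of tRNAs, together with genes that limit the response, such as Trib3. Dividing fibroblasts use the serine and one-carbon products for nucleotide synthesis and proline for collagen.

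To show where the element stands in these genes, promoter windows of RefSeq (GRCm38.p6, the build of mm10), from 250 bases before to 50 after each annotated start, were searched on both strands for TGATGNAAN, the C/EBP-ATF response element, and for TGACGTCA, the cyclic AMP response element, 2 motifs of which no gene among the 10 held both. All 10 genes matched the table by symbol, with 11 windows, because Psat1 has an alternative start. TGATGNAAN was found for Asns, Pycr1, Chac1 and Trib3 and in 3.95% of all 32851 windows, and TGACGTCA for none of the 10 genes and in 1.79% of all windows. The stretches that hold the 4 matches are printed 5′ to 3′ along the gene, with the match in capitals. Those of Asns and Trib3 are kept short, because the former lies in an exon of GENCODE M21 and the latter after the RefSeq start. The match of Trib3 has 0 bases in an annotated exon of GENCODE M21, so whether it is transcribed depends on the annotation.
Asns: cccagccacaTGATGAAACttcccgcacgc
Pycr1: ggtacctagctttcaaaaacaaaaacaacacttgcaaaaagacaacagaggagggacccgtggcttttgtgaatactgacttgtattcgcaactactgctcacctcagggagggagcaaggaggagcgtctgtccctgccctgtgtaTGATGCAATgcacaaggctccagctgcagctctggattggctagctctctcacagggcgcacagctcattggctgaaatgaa
Chac1: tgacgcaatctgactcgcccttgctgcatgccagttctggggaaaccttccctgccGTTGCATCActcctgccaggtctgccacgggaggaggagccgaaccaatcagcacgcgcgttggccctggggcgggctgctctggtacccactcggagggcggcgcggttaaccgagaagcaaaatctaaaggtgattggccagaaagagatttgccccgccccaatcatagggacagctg
Trib3: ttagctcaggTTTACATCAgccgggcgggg
The stretch of Asns is chr6:7693213-7693242 on the minus strand, with the match 23 to 15 bases before the start. That of Pycr1 is chr11:120643770-120643998 on the minus strand, with the match 103 to 95 bases before the start. That of Chac1 is chr2:119350992-119351228 on the plus strand, and its match, 194 to 186 bases before the start, reads TGATGCAAC on the opposite strand. That of Trib3 is chr2:152344028-152344057 on the minus strand, and its match, 14 to 22 bases after the start, reads TGATGTAAA on the opposite strand. A match is a string of letters and not a measured binding site, and ATF4 binding was not measured here.

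Levels are in TPM, a unit of transcript abundance per length of gene in which each library sums to 1000000. A difference is the mean of log2(TPM + 1) with CX-5461 less that with DMSO, a scale on which changes of low genes are understated. Differences were tested with limma over the 14621 genes that averaged 1 TPM or more, with an adjusted p of 0.05 as the threshold. On simulated data the share of false calls was above that threshold. The libraries held 35323817 to 37631012 fragments, recovered from the TPM values, and log2 values correlated across genes, which are not independent replicates, at 0.984 and 0.986 within groups and at 0.949 to 0.954 between them. DMSO replicate 3 stood apart in composition, with 15.3% of TPM from mitochondrially encoded genes against 9.20% to 9.96% in the other libraries. The 10 fibroblast markers were all present, summing to 9938 and 12211 TPM with DMSO and 8689 and 8969 TPM with CX-5461. Of the markers of other cells, Myod1 and Myog (muscle), Olig2 (neural) and Dppa5a, Tdgf1 and Dppa3 (pluripotent cells) were listed at 0 in all libraries. Summed levels were 51.4 to 59.4 TPM for 7 endothelial, 48.3 to 81.8 TPM for 7 macrophage and blood, 25.8 to 37.0 TPM for 7 keratinocyte, 22.1 to 33.7 TPM for 7 muscle and 0.148 to 0.932 TPM for 7 pluripotency markers. The 7 neural markers summed to 342 and 360.2 TPM with DMSO and to 303 and 320.5 TPM with CX-5461, most of it Tubb3 and Nes. Sox10, also neural, stood at 30.2 to 39.7 TPM. The highest endothelial marker was Tek (32.6 to 44.3 TPM) and the highest macrophage and blood marker Cd68 (26.7 to 52.6). Krt14 (10.8 to 26.9 TPM) was the highest keratinocyte marker and Des (20.2 to 33.4) the highest muscle marker.

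The comparison of CX-5461 with DMSO asks what 1 h of CX-5461 at the onset of reprogramming left changed on day 2. Of the 10 genes, 9 fell and none rose, where 8.21% of all genes tested fell and 11.6% rose, 19.8% in all. Under the 3 other scalings all 10 fell, and the excess of rises over falls among all genes was not seen, with 1678 falls and 1637 rises under median-of-ratios scaling, 1646 and 1638 under quantile normalization, and 1687 and 1621 with TPM rescaled without mitochondrially encoded and the 20 highest genes. Both CX-5461 libraries lay below both DMSO libraries for all 10, as they did for 26.3% of genes tested, and above for none, as they did for 38.2%. With every difference below 0 in both fits, none of the 10 could rise at an unadjusted limma p under 0.05 or with voom. The median difference was -0.94 over the 10 genes and 0.07 over all genes. The 10 genes summed to 1266 and 1062 TPM in the DMSO libraries and to 609 and 571 TPM in the CX-5461 libraries. Levels after CX-5461 ran from 39.6% of the DMSO mean for Mthfd2 to 75.0% for Pycr1, the gene that did not pass. In these bulk libraries, fewer cells that express a gene and less RNA of it per cell cannot be told apart. With a library left out, the lone library of its group being assumed to vary like the other group, 7 of the 10 genes passed without DMSO replicate 2, 7 without DMSO replicate 3, 5 without CX-5461 replicate 2 and 3 without CX-5461 replicate 3, and each of the 10 differences stayed below 0.

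**Figure D1:**
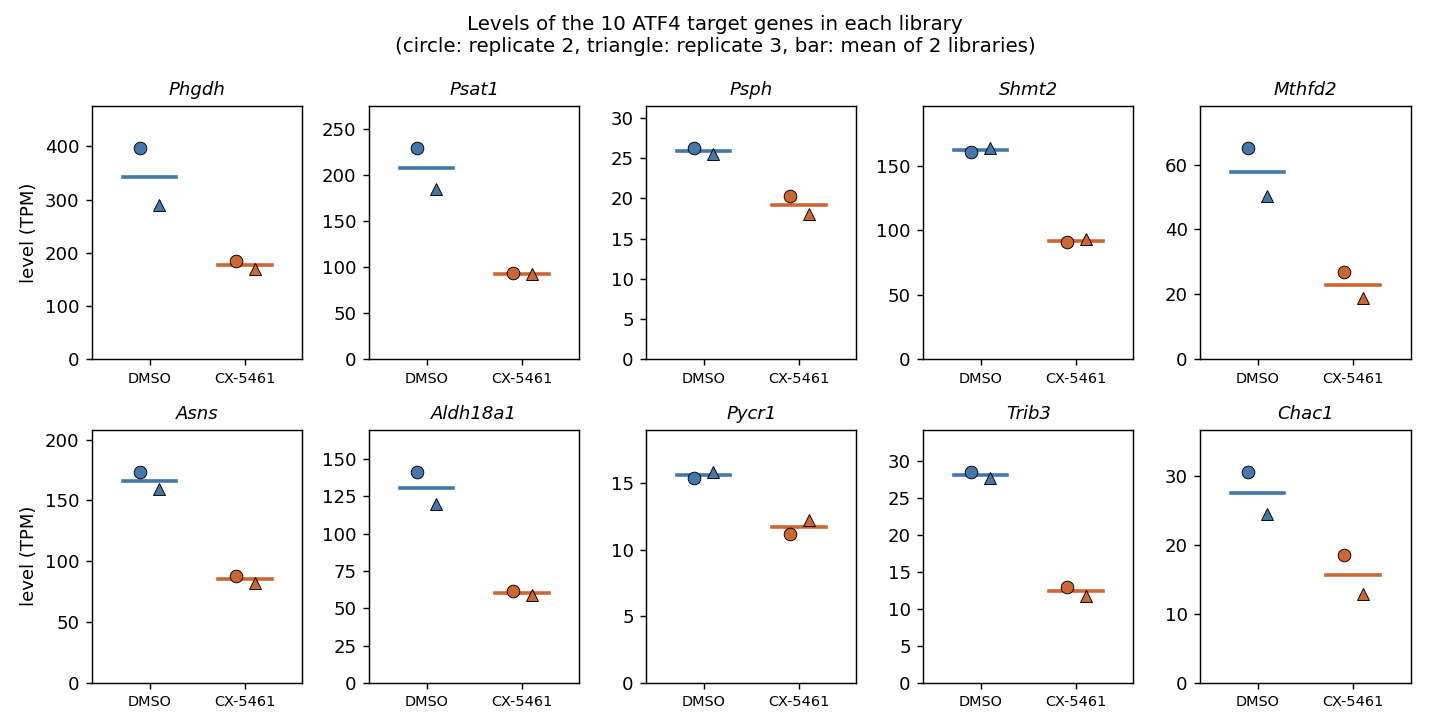
Level in TPM (vertical axes from 0) of each of the 10 genes in the 2 DMSO (blue) and 2 CX-5461 (orange) libraries, with the mean of each group as a bar. In every panel both CX-5461 points lie below both DMSO points, and the gap is narrowest, relative to the level, for Psph and Pycr1.

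The serine genes lead from a glycolytic intermediate to serine, and Phgdh, which encodes the dehydrogenase of the committed first step, was the most abundant of the 10. Phgdh (chromosome 3, 98313170 to 98339990, mm10) stood at 396 and 289.9 TPM in the DMSO libraries and at 185 and 170.4 TPM in the CX-5461 libraries. It fell by 0.93 on the log2 scale (SE 0.158, adjusted p = 0.0153), though the DMSO libraries differed from each other by more than the CX-5461 libraries did, and the call ended without CX-5461 replicate 2 (adjusted p = 0.0889) or replicate 3 (0.128). Phgdh is also the gene with the most copies: transcripts of 23 other genes matched it at 90% identity or more over at least 150 bases, and its recovered fragment numbers were not whole in any library. The 17 such copies in the table summed to only 3.98 and 3.38 TPM with DMSO and 1.87 and 1.06 TPM with CX-5461.

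Psat1, the transaminase of the middle step (chromosome 19, 15904678 to 15947337), stood at 229 and 186 TPM with DMSO and at 93.9 and 92.6 TPM with CX-5461. The groups lay far apart, and Psat1 fell by 1.14 (SE 0.118, adjusted p = 0.00316, and 0.0514 without CX-5461 replicate 3). Psph, the phosphatase that releases free serine (chromosome 5, 129765558 to 129787449), stood at 26.2 and 25.5 TPM with DMSO and at 20.3 and 18.1 TPM with CX-5461. It fell by 0.41 (SE 0.105, adjusted p = 0.0459). The call of Psph ended whichever library was left out, with adjusted p = 0.104 and 0.108 without DMSO replicates 2 and 3 and 0.136 and 0.275 without CX-5461 replicates 2 and 3. It also ended without the filter on low values (0.0820) and without limma's trend and robust options (0.0777). The 95% interval of Psph, -0.67 to -0.15, did not reach that of Psat1, -1.43 to -0.84. Whether the changes of Psph and Psat1 differ was not tested. In the annotation, 452 bases of the 4329 exon bases of Psph overlap an exon of Cct6a, a chaperonin gene on the opposite strand listed at 236 to 264 TPM. Whether the reads were counted by strand is not given in the sources used here, so reads of that overlap cannot be told apart.

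The mitochondrial one-carbon genes use serine to charge folate. Shmt2, the mitochondrial hydroxymethyltransferase that splits serine into glycine and a one-carbon unit (chromosome 10, 127517123 to 127522444), stood at 161 and 163 TPM with DMSO and at 91.2 and 93.0 TPM with CX-5461. Its libraries were nearly level within each group, and it fell by 0.81 (SE 0.078, adjusted p = 0.00253). The call of Shmt2 missed the threshold narrowly without CX-5461 replicate 2 (adjusted p = 0.0516) or replicate 3 (0.0531). Mthfd2, the dehydrogenase and cyclohydrolase of the next steps (chromosome 6, 83305691 to 83325908), stood at 64.9 and 50.4 TPM with DMSO and at 26.9 and 18.8 TPM with CX-5461. It had the largest difference of the 10, falling by 1.31 (SE 0.207, adjusted p = 0.0138, and 0.0684 without CX-5461 replicate 3). Only 2.21% of all genes tested had a lower difference than Mthfd2, and the 4 fits with a library left out gave -1.56 to -1.06.

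Asns, the enzyme that makes asparagine from aspartate (chromosome 6, 7675169 to 7693254), stood at 173 and 159 TPM with DMSO and at 88.1 and 81.9 TPM with CX-5461. The CX-5461 libraries averaged 51.1% of the DMSO level without overlap, and Asns fell by 0.96 (SE 0.091, adjusted p = 0.00239). It passed whichever library was left out, with adjusted p from 0.0128 to 0.0492.

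The proline genes did not move by equal amounts. Aldh18a1, the synthase of the first step from glutamate (chromosome 19, 40550257 to 40588463), stood at 141 and 119.5 TPM with DMSO and at 61.7 and 59.0 TPM with CX-5461. It fell by 1.10 on the log2 scale (SE 0.107, adjusted p = 0.00266) and passed whichever library was left out (adjusted p from 0.0114 to 0.0474). Pycr1, the mitochondrial reductase of the last step (chromosome 11, 120635712 to 120643769), had the lowest mean of the 10 genes in each group. It stood at 15.4 and 15.8 TPM with DMSO and at 11.2 and 12.2 TPM with CX-5461. Its groups did not overlap, but its difference of -0.39 (SE 0.114, 95% interval -0.67 to -0.10) did not pass (adjusted p = 0.0665). Pycr1 passed under median-of-ratios scaling (-0.45, adjusted p = 0.0387), under quantile normalization (-0.42, 0.0492), when TPM was rescaled without mitochondrially encoded and the 20 highest genes (-0.46, 0.0406), and with limma's voom on the recovered fragments (-0.47, 0.0257), an analysis added after the data were seen. The interval of Aldh18a1, -1.36 to -0.83, lay wholly below that of Pycr1. The difference between the 2 differences was not tested.

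Trib3 and Chac1 make no amino acid. Trib3, a pseudokinase that binds and restrains ATF4 (chromosome 2, 152337422 to 152344032), stood at 28.5 and 27.7 TPM with DMSO and at 12.9 and 11.8 TPM with CX-5461. It fell by 1.13 (SE 0.106, adjusted p = 0.00232) and passed whichever library was left out, with differences of -1.19 to -1.06. Chac1, a cyclotransferase that breaks down glutathione (chromosome 2, 119351229 to 119354381), stood at 30.6 and 24.5 TPM with DMSO and at 18.5 and 12.8 TPM with CX-5461. The spread within each group was wide for Chac1, and it fell by 0.79 (SE 0.200) with an adjusted p of 0.0468, near the threshold. Its call ended without DMSO replicate 2 (adjusted p = 0.149), DMSO replicate 3 (0.0887), CX-5461 replicate 2 (0.0610) or CX-5461 replicate 3 (0.207), without the filter on low values (0.0983), and without limma's trend and robust options (0.0862). Chac1 also had the fewest recovered fragments, 212 in CX-5461 replicate 3, against 10124.5 for Phgdh in DMSO replicate 2.

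**Figure D2:**
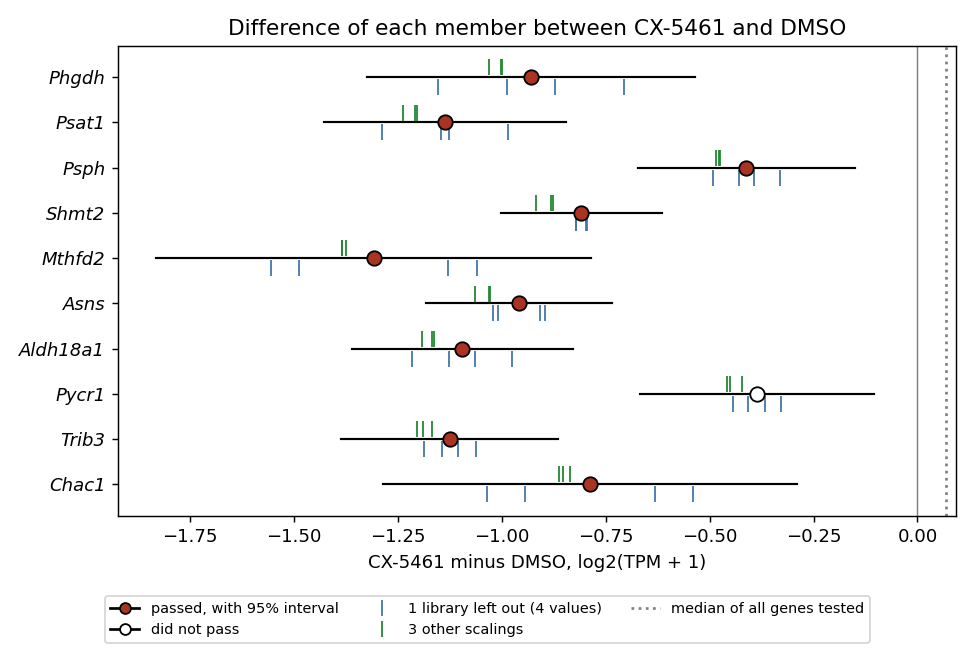
CX-5461 minus DMSO difference of each gene on the log2(TPM + 1) scale (horizontal axis), with its 95% interval as a black line, the 4 values with a library left out as blue ticks and those under 3 other scalings as green ticks. Every tick lies below 0, and the open circle is Pycr1, which did not pass.

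The order of the levels was largely kept between groups. In the DMSO libraries it ran Phgdh, Psat1, Asns, Shmt2, Aldh18a1, Mthfd2, Trib3, Chac1, Psph and Pycr1, and the ranges of the libraries overlapped between the neighbours Asns and Shmt2, Trib3 and Chac1, and Chac1 and Psph. With CX-5461, Psat1 (93.3 TPM on average) and Shmt2 (92.1) overlapped, Asns came next at 85.0 and Aldh18a1 at 60.3, and from Mthfd2 (22.9) over Psph (19.2), Chac1 (15.7) and Trib3 (12.3) to Pycr1 (11.7) each gene overlapped its neighbour. DMSO replicate 2 lay above DMSO replicate 3 for 8 of the 10 genes, and for 6 once mitochondrially encoded genes were taken out of the total. CX-5461 replicate 2 lay above CX-5461 replicate 3 for the same 8 genes, with or without mitochondrially encoded genes in the total. With mitochondrially encoded genes out, all 10 genes were still lower in both CX-5461 libraries than in both DMSO libraries.

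**Figure D3:**
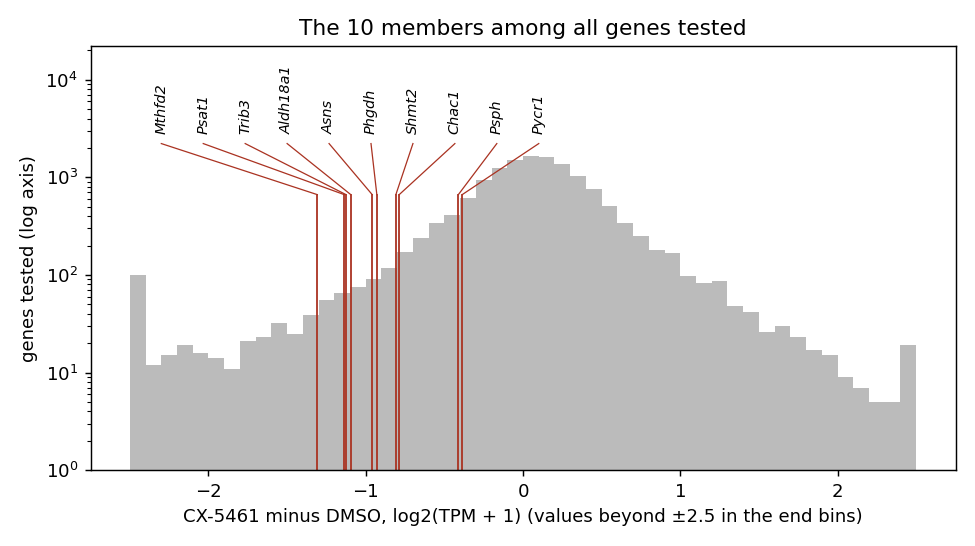
Number of tested genes (vertical log axis) by CX-5461 minus DMSO difference on the log2(TPM + 1) scale, with the 10 genes as red lines. All 10 lie left of the median of all genes, 0.07, and from Mthfd2 to Pycr1 between 2.21% and 13.4% of genes lie lower.

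The message of Atf4 itself stood at 228 and 212 TPM with DMSO and at 188 and 182 TPM with CX-5461, without overlap, and the difference of -0.25 did not pass (adjusted p = 0.0899). Under median-of-ratios scaling (-0.32, adjusted p = 0.0298), quantile normalization (-0.35, 0.0212), rescaling without the mitochondrially encoded and highest genes (-0.32, 0.0259) and voom (-0.30, 0.00826), Atf4 did pass. Of 12 genes of the kinases, phosphatase subunits and sensors around eIF2alpha, none passed in either direction with limma (median 0.02). At an unadjusted p under 0.05, 2 were higher and 0 lower, and voom called 1 higher and 0 lower. Over all 14386 genes that voom tested, 2211 fell and 2329 rose, to be set beside the voom counts of this and later lists. The share of all genes at an unadjusted p under 0.05 was not counted. Eif2ak3 stood at 36.0 and 35.5 TPM with DMSO and 37.0 and 36.2 TPM with CX-5461 (0.03, adjusted p = 0.817), and Eif2ak4 at 14.96 and 15.12 against 12.82 and 15.92 TPM (-0.07, adjusted p = 0.749). The sign of both differences changed between settings. Ppp1r15a, the phosphatase subunit that reverses eIF2alpha phosphorylation and is itself an ATF4 target, stood at 35.2 and 39.6 against 44.7 and 46.0 TPM (0.27, adjusted p = 0.106). Impact, an inhibitor of GCN2, had the smallest adjusted p of that list (0.33, 0.0591). It passed without DMSO replicate 2, with a filter of 5 TPM and with voom. Phosphorylation of eIF2alpha and ATF4 protein were not measured.

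Among 11 genes of ATF4 and the factors that act with it, 4 rose and 2 fell (median 0.06). Atf3, a stress-induced factor, rose from 12.6 and 12.8 TPM to 23.1 and 30.6 TPM (1.01, adjusted p = 0.00941). Ddit3, which encodes CHOP, rose from 64.5 TPM in both DMSO libraries to 86.9 and 88.1 TPM (0.43, adjusted p = 0.0179), and Cebpb from 92.7 and 95.5 to 123 and 137 TPM (0.46, adjusted p = 0.0210). Nupr1, a small stress-induced chromatin protein, fell from 127 and 147 TPM to 63.7 and 44.0 TPM (-1.35, adjusted p = 0.00964). The other calls were Cebpa (0.95) and Jdp2 (-0.43), named after their values were seen. Jdp2 (adjusted p = 0.0488) did not pass with any 1 of the 4 libraries left out (0.0936 to 0.289) or without the filter on low values (0.0960). Atf5, a target and relative of ATF4, stood at 194 and 137 against 118 and 121 TPM (-0.45, adjusted p = 0.132). Atf5 did pass under median-of-ratios scaling (-0.51, adjusted p = 0.0459) and quantile normalization (-0.55, 0.0331). It also passed when rescaled without the mitochondrially encoded and highest genes (-0.52, 0.0442) and with voom (-0.50, 0.00532). In the remaining fits of all 4 libraries Atf5 did not pass (adjusted p from 0.0928 to 0.211). With a library left out, its difference ran from -0.70 to -0.19. Ddit3, Atf3, Cebpb and Cebpa rose while 9 of the 10 target genes fell. Without limma's trend and robust options Ddit3 (adjusted p = 0.0523) and Cebpb (0.0593) did not pass. Cebpa did not pass without the filter on low values (0.0561). Ddit3 had no value with voom. Without CX-5461 replicate 3 none of the 4 rises passed, with adjusted p = 0.0700 for Atf3, 0.174 for Ddit3, 0.206 for Cebpb and 0.127 for Cebpa. Cebpa missed as well without DMSO replicate 2 (0.0537) or 3 (0.103). Ddit3 also missed without CX-5461 replicate 2 (0.143), Cebpb without it (0.106) and without DMSO replicate 3 (0.0530), Atf3 without DMSO replicate 3 (0.0566) and Nupr1 without DMSO replicate 3 (0.0551).

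Other targets of ATF4 divided. Of 22 listed, 21 were tested, and 6 fell and 1 rose (median -0.25). Aldh1l2 and Mthfd1l, which carry mitochondrial one-carbon units on from the step of Mthfd2, fell from 39.0 TPM in both DMSO libraries to 14.4 and 9.21 TPM (-1.67, adjusted p = 0.00562) and from 52.6 and 45.8 to 23.7 and 24.7 TPM (-0.99, adjusted p = 0.00340). Bcat1, the cytosolic transaminase of branched-chain amino acids, fell from 58.6 and 52.9 to 20.3 and 16.2 TPM (-1.57, adjusted p = 0.00181). All 3 passed whichever library was left out. Stc2 (-0.83), Gpt2 (-0.61) and Herpud1 (-0.38), named after their values were seen, also fell, but none of these passed without CX-5461 replicate 2 or without CX-5461 replicate 3. Sesn2, an inhibitor of mTORC1 signaling that p53 also induces, rose from 108 and 99.3 to 173 and 176 TPM (0.75, adjusted p = 0.00413). Its call ended without CX-5461 replicate 2 (adjusted p = 0.0634) or replicate 3 (0.0753). With a library left out, 3 to 4 genes of this list fell and 0 to 4 rose.

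**Figure D4:**
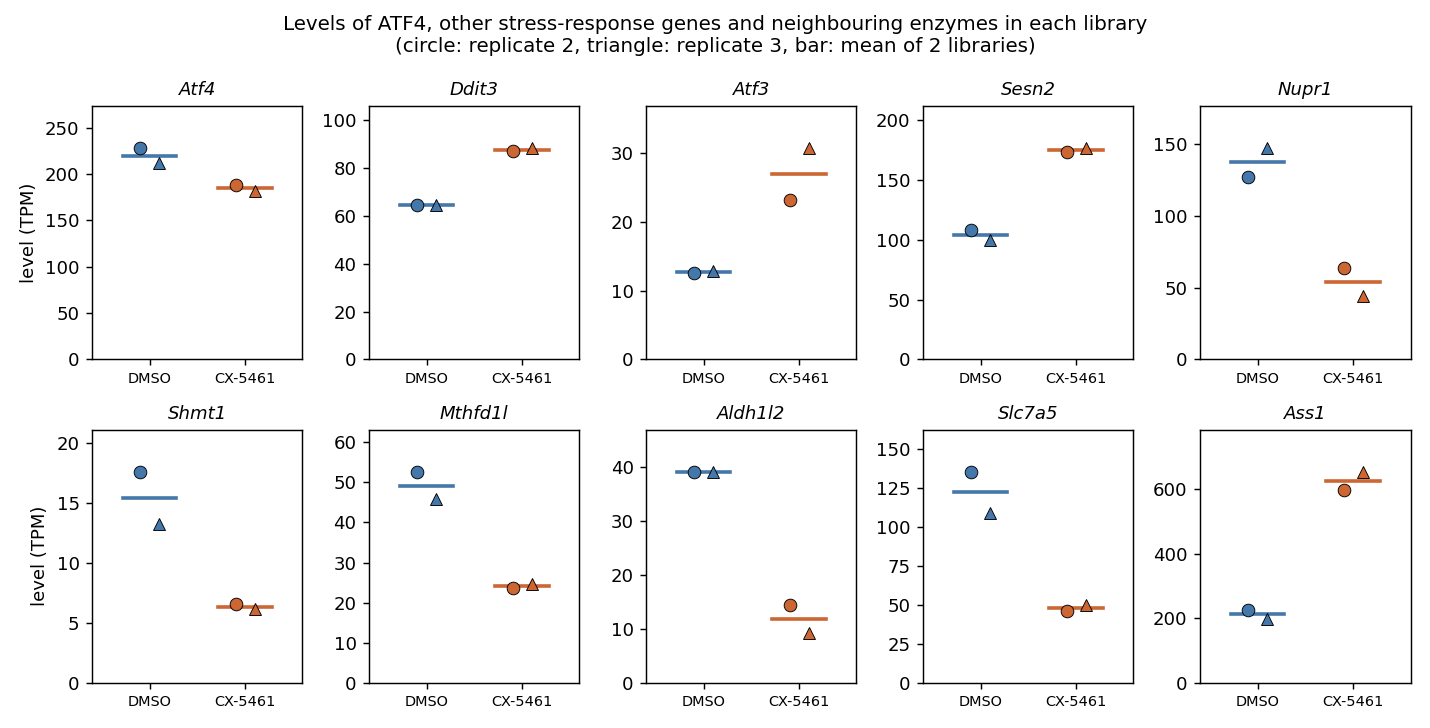
Level in TPM (vertical axes from 0) of Atf4 and 9 related genes in the 2 DMSO (blue) and 2 CX-5461 (orange) libraries, with group means as bars. Atf3, Ddit3, Sesn2 and Ass1 are higher with CX-5461, and Nupr1, Shmt1, Mthfd1l, Aldh1l2 and Slc7a5 are lower.

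Carriers and tRNA synthetases that ATF4 is known to induce shared the direction of the 10 genes in part. Of 10 transporters, 5 fell and none rose with limma (median -0.61), with 1 higher at an unadjusted p under 0.05 and 0 with voom. That 1 was Slc3a2 (0.27, adjusted p = 0.114), named after its values were seen. It stood at 132 and 116 TPM with DMSO and at 144 and 156 TPM with CX-5461. Slc7a5, the light chain of the large neutral amino acid exchanger, fell from 135 and 109 to 46.1 and 49.9 TPM (-1.32, adjusted p = 0.00239), and the glutamine carrier Slc1a5 from 44.8 and 41.3 to 19.75 and 19.99 TPM (-1.08, adjusted p = 0.00198). Both passed whichever library was left out. Slc1a4 (-0.84, adjusted p = 0.0277), Slc7a1 (-0.45, 0.0234) and Slc7a11 (-0.77, 0.0290) were the other falls, and with a library left out 2 to 3 of the list passed. Of 11 tRNA synthetases in the table, 6 fell and none rose with limma (median -0.38), and 0 were higher at an unadjusted p under 0.05 or with voom. Among them were Eprs1 (-0.42, adjusted p = 0.0208), Aars1 (-0.45, 0.0218), Tars1 (-0.47, 0.0269) and Iars1 (-0.32, 0.0385). None of the 6 passed without CX-5461 replicate 2 or without CX-5461 replicate 3.

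Neighbouring enzymes of the same pathways were compared, since several of the 10 genes have close relatives. Shmt1, the cytosolic counterpart of Shmt2, fell from 17.6 and 13.3 to 6.55 and 6.14 TPM (-1.15, adjusted p = 0.00850, and 0.0646 and 0.0836 without CX-5461 replicates 2 and 3). Mthfd2l, the relative of Mthfd2, stood at 5.23 and 4.74 against 5.22 and 5.75 TPM (0.12, adjusted p = 0.626). Pycr3, a relative of Pycr1 listed as Pycrl, stood at 59.1 and 56.3 against 61.6 and 53.4 TPM (-0.01, 95% interval -0.26 to 0.24). It was more abundant than Pycr1 in every library. Chac2, the relative of Chac1, stood at 24.1 and 25.7 against 28.1 and 28.3 TPM (0.17, interval -0.06 to 0.40). Trib1 (0.33, interval -0.05 to 0.71) and Trib2 (-0.07, interval -0.47 to 0.34) did not pass either. Whether any gene differed from its relative in its change was not tested.

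In the wider serine, glycine and folate list, 5 of 21 tested genes fell and 1 rose (median 0.00). Tyms, which makes thymidylate for DNA synthesis, fell from 15.1 and 14.9 to 5.15 and 6.47 TPM (-1.24, adjusted p = 0.00464). Gcsh, of glycine cleavage, fell as well (-0.42, adjusted p = 0.0317), but not without DMSO replicate 2 (0.0645), CX-5461 replicate 2 (0.139) or CX-5461 replicate 3 (0.259), and so did Mtr (-0.38), while Aldh1l1 (0.70) rose, the last 2 named after their values were seen. Mtr did not pass with any 1 library left out (adjusted p from 0.0911 to 0.280), and Aldh1l1 did not without DMSO replicate 2 (0.0874), CX-5461 replicate 2 (0.124) or CX-5461 replicate 3 (0.223). Of 9 tested genes of proline, arginine and ornithine metabolism, none fell with limma and 3 rose (median 0.20). At an unadjusted p under 0.05 the count of falls was 0 as well, and with voom it was 1. Ass1, which makes argininosuccinate from citrulline and aspartate, rose from 227 and 198 to 595 and 652 TPM (1.55, adjusted p = 0.000825) and passed whichever library was left out. Aldh4a1, of proline breakdown, rose from 42.6 and 33.7 to 81.3 and 89.3 TPM (1.15, adjusted p = 0.00435, and 0.0594 without CX-5461 replicate 3). Odc1 rose by less (0.38, adjusted p = 0.0344) and did not pass without CX-5461 replicate 2 (0.151), CX-5461 replicate 3 (0.288) or DMSO replicate 3 (0.0775). None of 6 tested genes of aspartate, asparagine and glutamine metabolism passed in either direction with limma, while 1 was lower and 0 higher at an unadjusted p under 0.05 and with voom. Asrgl1 (-0.45, adjusted p = 0.0784) and Got2 (-0.09, 0.518) had the smallest adjusted p among them.

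Of 10 tested glutathione genes, 3 rose and 1 fell (median 0.19). Gss, the glutathione synthetase, rose from 27.5 and 27.4 to 52.5 and 51.6 TPM (0.90, adjusted p = 0.00239) and passed whichever library was left out. Gpx4 (0.61, adjusted p = 0.00955) and Oplah (0.63, 0.0253) rose, and Gsr, which regenerates reduced glutathione, fell (-0.78, 0.00729). Each of these 3 calls ended without CX-5461 replicate 2 (adjusted p = 0.0924 for Gpx4, 0.159 for Oplah and 0.0764 for Gsr) and without CX-5461 replicate 3 (0.134, 0.134 and 0.0864).

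**Figure D5:**
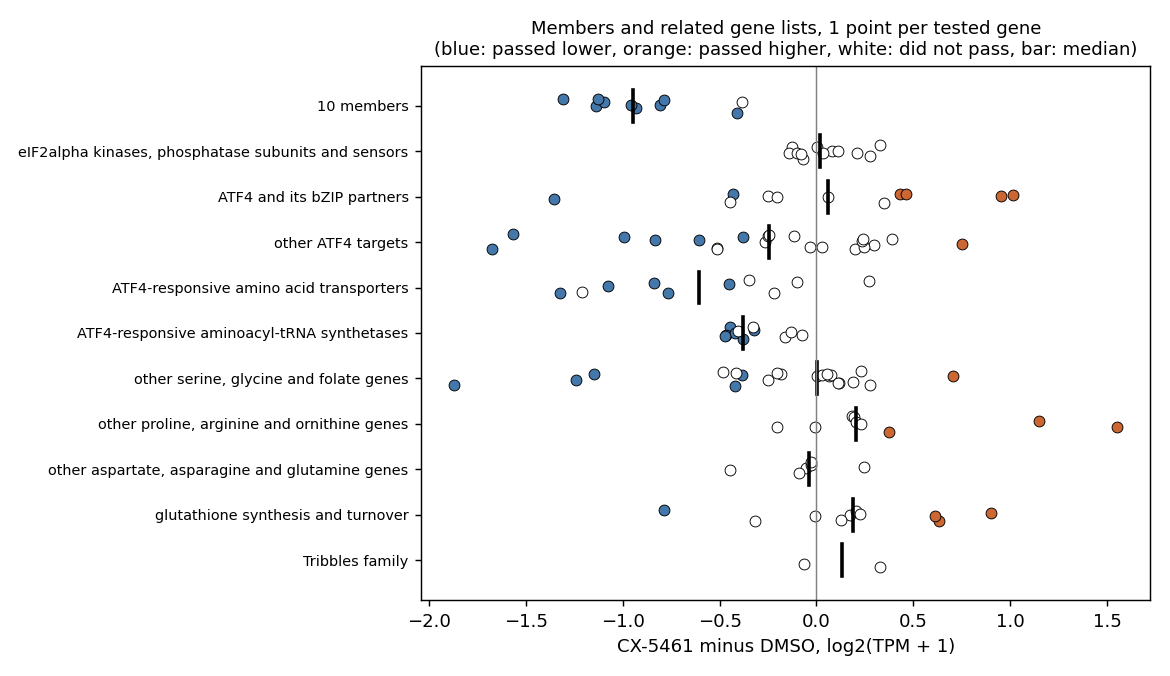
CX-5461 minus DMSO difference on the log2(TPM + 1) scale of each tested gene in the 10-gene set and 10 related lists, with the median of each list as a bar. The 10 genes have the lowest median, -0.94, followed by the transporters at -0.61 and the tRNA synthetases at -0.38.

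Across the genome, 288 tested genes had a promoter window with TGATGNAAN, and 45 of them (15.6%) fell and 40 (13.9%) rose. Without the 10 target genes, 42 of 284 (14.8%) fell. Of all 10693 tested genes with a window, 8.20% fell and 12.2% rose. The median difference was 0.04 with the motif and 0.08 over all such genes. This count was added after the data were seen, and it is a description with no test.

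Levels of Mki67 and Myc, which are in none of the lists and were named after their values were seen, differed between the same groups. Mki67, a marker of cycling cells, stood at 84.6 and 98.0 TPM with DMSO and at 1.59 and 1.75 TPM with CX-5461 (-5.11, adjusted p = 0.000163). Myc, a factor of the cassette that is also known to drive serine and one-carbon genes, stood at 330.5 and 376 against 216 and 217 TPM (-0.70, adjusted p = 0.00643). Cassette and endogenous Myc share 1 entry in the table. The part of either in the lower levels of the 10 genes was not tested.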

How the data were processed

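The authors deposited 1 column of TPM per library, which adjusts reads for gene length and library total, and each column sums to 1000000. The submitters' processing notes name build mm10, and the labels' protocols give BMKCloud as the platform for read cleaning. The names of the aligner, counter and annotation were not given in the sources used here. Groups and replicate numbers came from the sample titles, and 0 columns were left unused. Values of log2(TPM + 1) were fitted with limma 3.58.1 under R 4.3.3 for genes averaging 1 TPM or more (trend and robust, no covariate, 2 residual and 3.75 prior degrees of freedom), with Benjamini-Hochberg adjustment over all 14621 genes. An exact permutation test was not used, since with 2 libraries a group its smallest two-sided p is 0.333. The procedure was tested on simulated data.

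Multiplying TPM by the exon length in GENCODE M21 and a library-specific constant recovered fragment numbers. Whole numbers, within 0.01, made up 69.5% of 71278 values (2% by chance). Fragments of polymerase-amplified libraries are not independent molecules, so they cover counting error only. Chi-square per degree of freedom between replicates was 14.6 with DMSO and 8.47 with CX-5461, so no library was a copy of another. Gene copies were sought with blastn 2.17.0. The 10 genes and all lists were chosen with earlier results of these data known. All 10 genes were named, and from each list the genes ranking first by adjusted p (up to 4, or 2 if no gene passed), together with Atf4, its sensors and the direct relatives of the 10 genes. Of the listed genes, 10 carried another symbol in the table and 1 was not matched. Some results that this rule names are not reported here.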

Additional observations from a re-analysis of the deposited data

How the results depend on the processing

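The differences of all 10 genes were below 0 in all 15 fits, and of 160 values under alternatives 132 kept their side of the threshold, 23 lost the call, 5 gained it and 0 changed sign. At an adjusted p under 0.01, 5 of the 10 genes passed, and with 1 library left out 3 to 7 did, against 9. Over all genes, 1201 fell and 1694 rose. These counts were 518 and 548 at an adjusted p under 0.01, 364 to 891 and 237 to 2047 with 1 library left out, and 2211 fell with voom. Counts of rises were 1051 without the filter on low values, 1128 without trend and robust options and 2623 at an adjusted p under 0.1. Over all genes tested, the deviations of same-numbered libraries correlated at 0.03. Among the 10 genes, replicate 2 lay above replicate 3 in both groups for 8 and below it in both for Shmt2 and Pycr1. Whether same-numbered libraries were paired cannot be told from these values. With a replicate block 1100 genes fell, 1589 rose and 8 of the 10 genes passed. The block raised the adjusted p of Psph (to 0.0614), Pycr1 (0.101) and Shmt2 (0.00316). It lowered that of the others, such as Phgdh (0.00309), Mthfd2 (0.000764) and Chac1 (0.00752). For Eif2ak3 (0.03), the sign changed with median-of-ratios (-0.035) and quantile scaling (-0.034), with rescaling without the highest genes (-0.038) and with voom (-0.023). With 1 library left out, values that changed sign ranged from -0.22 to 0.077 for Eif2ak4, -0.11 to 0.092 for Pycr3 and -0.27 to 0.14 for Trib2. Over all alternatives, falls ranged over 1 to 4 among the ATF4 partners, 3 to 10 among other targets, 2 to 8 among transporters, 0 to 8 among tRNA synthetases and 2 to 8 among serine, glycine and folate genes, and rises over 0 to 5 among the partners, 0 to 4 among other targets, 1 to 3 among proline and arginine genes and 1 to 4 among glutathione genes. Causes of these shifts were not tested.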
